A study of Mus musculus with 6 samples.

Results

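Lysosomal hydrolases other than the cathepsins were examined as a group of 42 genes, found by their symbols among the 27179 genes of a count table from mouse embryonic stem cells (mESC). All 42 were in the table. They were ordered into 6 classes by what they act on: peptides (6 genes), glycans (14), sphingolipids (6), other lipids (6), sulfate groups (8) and phosphate esters (2). The list also takes in proteins that do not themselves hydrolyse a substrate: the sphingolipid cofactors Psap and Gm2a, the cholesterol carrier Npc2, the acetyltransferase Hgsnat and the sulfatase-modifying factors Sumf1 and Sumf2.

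RNA was sequenced in 6 libraries of mESC that carry Tfe3-ERT2, a form of mouse Tfe3 that moves to the nucleus when tamoxifen is added. The treated group (4OHT, 3 libraries) received 4-hydroxytamoxifen at 1 µg/mL for 48 h, and the control group (EtOH, 3 libraries) received ethanol, the solvent. Both groups were grown on gelatin in serum with LIF, a cytokine that holds mESC in self-renewal, and both carry the fusion. Cells without the fusion were not analysed here, so a response to 4OHT itself and a response to nuclear Tfe3 cannot be told apart. The labels give neither the promoter that drives the fusion nor whether the line is 1 clone. They do not say that replicates were separate cultures, so p-values measure the spread between these libraries, which may be technical.

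Lysosomal hydrolases are made in the endoplasmic reticulum, tagged with mannose 6-phosphate in the Golgi and carried by receptors to the acidic lysosome, where they cut proteins, glycans, lipids and sulfated molecules down to units that can be exported to the cytosol. Loss of single members causes lysosomal storage diseases, named for the substrate that builds up. Tfe3 belongs with Tfeb and Mitf to a family of helix-loop-helix factors that bind E-box DNA, and many lysosomal genes hold such a site, called the CLEAR element, near their start. In mESC, Tfe3 is held in the cytoplasm or let into the nucleus by nutrient signalling through mTORC1.

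Levels are given in CPM, counts scaled to the size of each library. Fold changes, their standard errors (SE) and Benjamini-Hochberg adjusted p-values come from edgeR's quasi-likelihood test over all 12345 genes that passed a filter on low counts, and a gene was called at an adjusted p under 0.05. Libraries held 4092877 to 6427880 counts, so 3 counts, taken as the limit of detection, correspond to 0.469 to 0.738 CPM. These figures cover counting error only. The counts of Tfe3 itself, which may combine the resident gene and the fusion, were 1074, 1035 and 1004 CPM in EtOH and 832, 836 and 827 CPM in 4OHT (log2 fold change -0.32, SE 0.03, edgeR adjusted p 9.8e-19). This checks transcript level only; where the protein lay was not measured. mESC markers were abundant in both groups, at 6463 and 7219 summed CPM. Of these 12 markers 5 rose (41.7%, against 21.4% of all genes tested), among them Tfcp2l1 (669 to 1510 CPM) and Esrrb (566 to 882 CPM). Another 5 fell (41.7%, against 20.6%), namely Pou5f1, Tdgf1, Utf1, Lin28a and Fgf4, and 2 were not called. The median log2 fold change of the 12 was 0.00. All 8 tested of 10 trophectoderm markers were called higher, against 21.4% of all genes tested. This count depends partly on the filter. Hand1 was tested only through the group where it is high, with 0 EtOH and 3 4OHT libraries at the filter level. Cdx2, with 2 EtOH and 0 4OHT libraries at that level, was left out. The sum over all 10 was 500 to 520 CPM in the EtOH libraries and 1054 to 1086 CPM in the 4OHT libraries. It follows its abundant genes Krt8 (mean 219 CPM in EtOH, 489 CPM in 4OHT) and Krt18 (161 and 371 CPM). The called markers of lower level were Hand1 (5.89-fold), Eomes (2.61-fold), Krt7 (2.5-fold), Gata3 (2.24-fold), Tead4 (1.83-fold) and Tfap2c (1.16-fold). Cdx2, at 2.82, 2.71 and 1.23 CPM in EtOH and 1.3, 1.44 and 1.87 CPM in 4OHT, did not pass the filter. Elf5, at 0 CPM in EtOH and at most 0.18 CPM in 4OHT, did not pass it either. Macrophages are rich in lysosomal enzymes, and of 10 macrophage markers Adgre1, Lyz2 and Tyrobp had no count in any library. The other macrophage markers apart from Laptm5 and Mrc1 were each under 1 CPM on average in both groups. Laptm5, itself a lysosomal membrane protein, rose by 0.90 on the log2 scale (SE 0.05) and Mrc1 by 0.55 (SE 0.20). Without these 2 genes the macrophage sum was 0.738 to 1.13 CPM in EtOH and 1.8 to 2.34 CPM in 4OHT. Among 5 tested fibroblast markers only Fn1 was called, and it rose. Col1a2 (log2 fold change 0.67, SE 0.33) was not called, at an edgeR adjusted p of 0.096 and an unadjusted p of 0.046. None of the 5 tested primitive endoderm markers was called by edgeR, DESeq2 or limma-voom, with 1 of them, Sox7, at an unadjusted p under 0.05 in edgeR (0.038). The part of these marker shifts in the hydrolase results was not tested.

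Most of the hydrolase genes rose. Of the 40 tested, 25 were called higher in 4OHT (62.5%), 2 lower (5%) and 13 were not called. Over all genes tested, 21.4% were called higher and 20.6% lower. The median log2 fold change of the 40 genes was 0.56, with a range from -0.48 to 1.35, beside a median of 0.00 over all genes. A rise of at least 1.5-fold was called for 18 of the 40, against 7.84% of all genes, and a rise of at least 2-fold for 3, against 2.86%. The 3 4OHT libraries lay above all 3 EtOH libraries for 26 of the 40 genes, which held for 25.1% of all genes tested. They lay below all 3 for 2 of the 40, against 23.7% of all genes tested. In 12 genes the groups overlapped. In bulk RNA, fewer cells of a type and less RNA per cell cannot be told apart.

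Summed over the 42 genes, the hydrolases took 1603, 1595 and 1596 CPM in the EtOH libraries and 2413, 2458 and 2399 CPM in the 4OHT libraries, a ratio of means of 1.52. Per kilobase of gene length the ratio was 1.51. All 3 4OHT sums lay above all 3 EtOH sums. The SD was 4.21 CPM in EtOH and 30.7 CPM in 4OHT (n = 3), and an SD of 3 values is itself uncertain. The sphingolipid class had the highest ratio of summed CPM (1.74), followed by the peptide (1.53), lipid (1.52), glycan (1.41), sulfate (1.26) and phosphate ester (1.06) classes. A class sum follows its abundant genes: Psap and Asah1 dominate the sphingolipid sum and Npc2 the lipid sum.

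**Figure D1:**
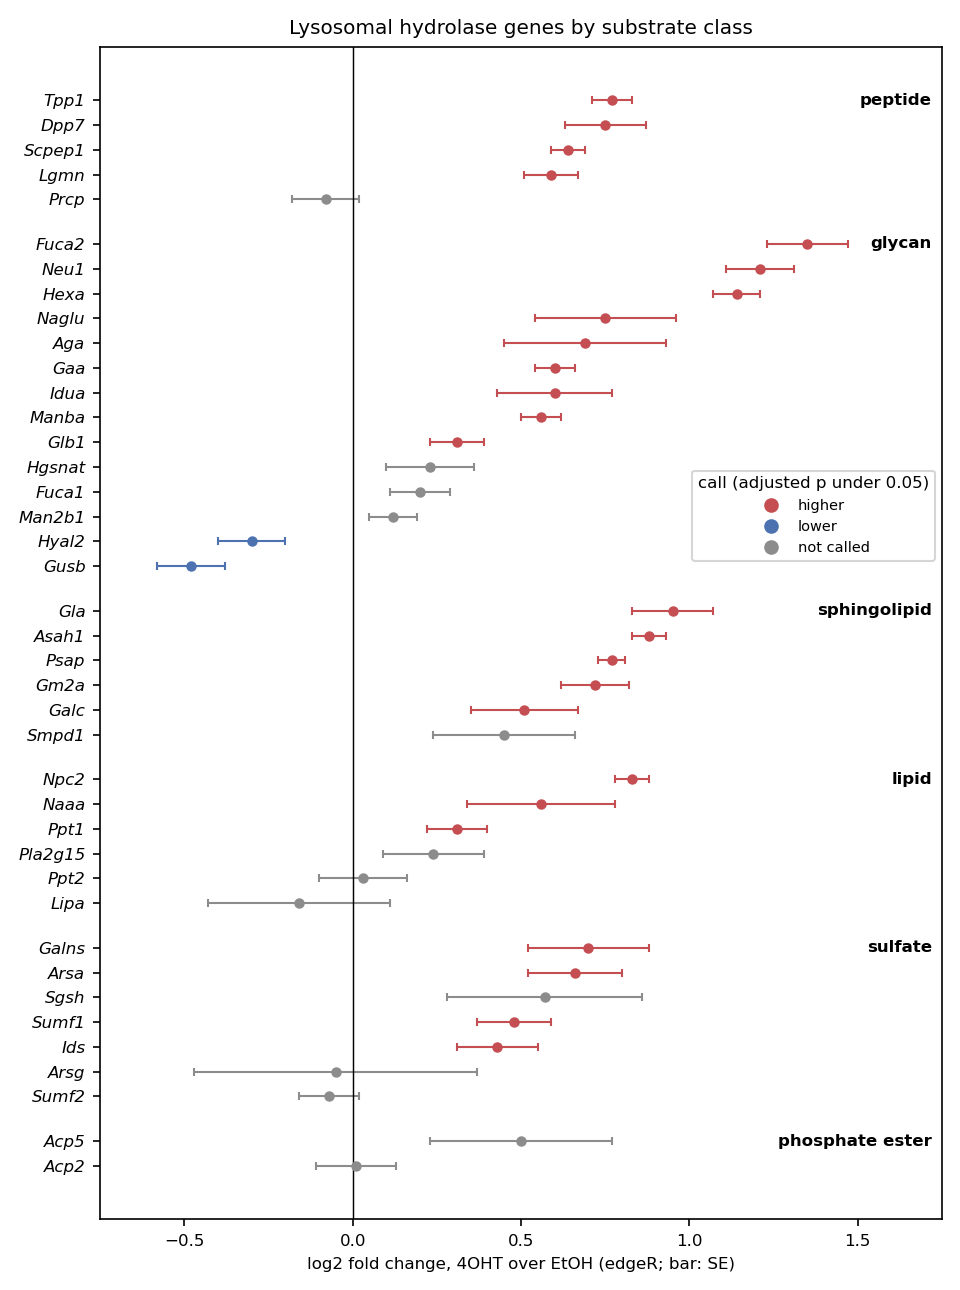
Log2 fold change of 4OHT over EtOH (horizontal axis, bars show the SE) for each of the 40 tested hydrolase genes, grouped by substrate class and coloured by call. The 25 genes called higher lie between 0.31 and 1.35, and the 2 called lower, Gusb and Hyal2, both belong to the glycan class.

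**Figure D2:**
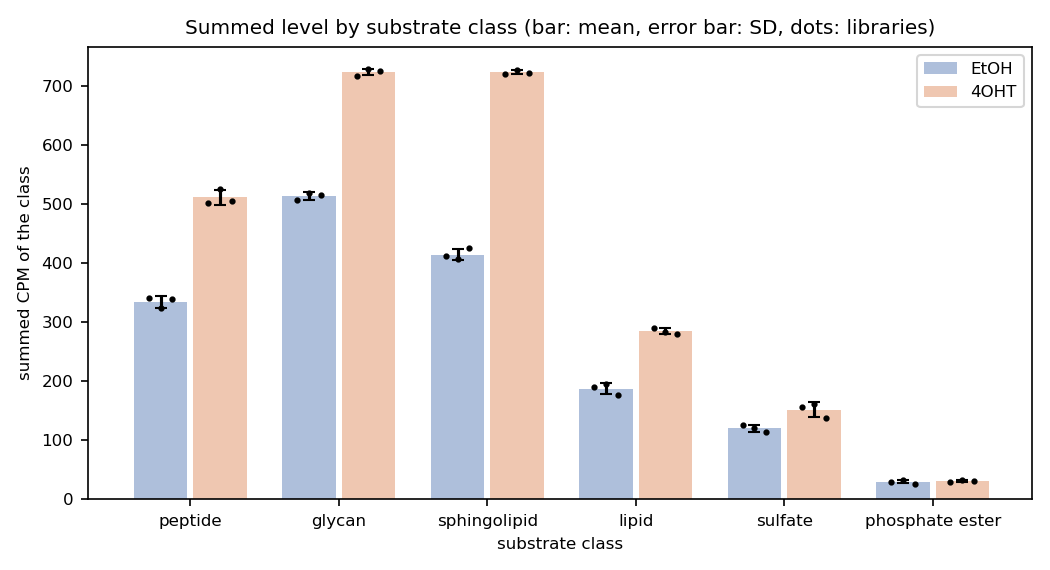
Summed CPM of each substrate class (vertical axis) in EtOH and 4OHT, with the mean as a bar, the SD as an error bar and each of the 3 libraries as a dot. The groups do not overlap in any class except phosphate ester, where EtOH libraries hold 26.3 to 32.3 CPM and 4OHT libraries 29.7 to 33 CPM.

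Sequences around the start sites of these genes were read because Tfe3 binds E-boxes. RefSeq promoter windows, from 250 bases before to 50 bases after the start site (GRCm38.p6), matched 37 of the 42 genes; Aga, Asah1, Cpq, Galns and Hgsnat had none in the table. The palindromic E-box core CACGTG, which reads the same on both strands, occurred in the windows of 9 of the 37 genes (24.3%). Among genes with such a window, the base of each motif share here, it occurred for 8.09% of all and 12.2% of those tested. Each of the 9 also held it as TCACGTG on one strand or the other, a form found for 4.29% of all genes and 7.27% of those tested. Of the 9, 8 were called higher (Arsa, Dpp7, Gaa, Gla, Glb1, Lgmn, Naglu, Sumf1), and Sgsh was not called. Without the core, 14 of 27 tested genes with a window were called higher, and over all genes tested the share was 21.4%. Whether the core goes with the call was not tested. The median log2 fold change was 0.60 in these 9 genes and 0.45 in the 27 tested genes with a window but without the core. A match is a description of letters, and no binding was measured. The 10 matches are shown with 9 bases on each side, 5′ to 3′ along the gene's own strand, with the core in capitals.
Gla, chrX:134601218-134601241, minus strand: gcgattgatCACGTGagcatctac
Gla, chrX:134601185-134601208, minus strand: gatctcggtCACGTGagcaactct
Dpp7, chr2:25356391-25356414, minus strand: ccagactatCACGTGatgctgccc
Naglu, chr11:101070012-101070035, plus strand: ccttcaggtCACGTGgcccgaggt
Arsa, chr15:89477426-89477449, minus strand: actcagtgtCACGTGttgtctgct
Gaa, chr11:119267814-119267837, plus strand: ctgtgcgatCACGTGtttgactct
Lgmn, chr12:102439127-102439150, minus strand: aatgtctgtCACGTGgtccatttt
Sgsh, chr11:119355525-119355548, minus strand: cctgccgtgCACGTGaccgtgggg
Sumf1, chr6:108185580-108185603, minus strand: accacaggtCACGTGatctccatg
Glb1, chr9:114401021-114401044, plus strand: cttctgagtCACGTGgcctacaga

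Gla holds a pair of cores. The cores start between 227 and 11 bases before the start site, and those of Sumf1 (11 bases), Arsa (16) and Sgsh (29) lie closest to it. The full CLEAR palindrome, CACGTG with GT before it and AC after it, was in none of the 37 genes' windows, and in those of 0.83% of the genes tested.

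A related element, TCATGTG on either strand (CACATGA on the other), the M-box form bound by this family, was in the windows of 6 of 37 genes (16.2%), against 4.31% of all genes and 2.45% of those tested. The 6 were Dpp7, Gla, Ppt1, Sumf1 and Tpp1, all called higher, and Acp5, which was not called. For comparison, 62.5% of the 40 tested hydrolase genes and 21.4% of all genes tested were called higher. Dpp7, Gla and Sumf1 hold both elements, at separate places. Tpp1 carries it as a pair just after the start site, one in each orientation and without the E-box core, shown here with the element in capitals.
Tpp1, chr7:105752216-105752240, minus strand: agaccatgcTCATGTGacttatcac
Tpp1, chr7:105752203-105752227, minus strand: gtgacttatCACATGActacagatc

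The genes with the largest rises and the falls did not carry these letters. The windows of Hexa, Neu1 and Fuca2, the 3 genes called with the largest log2 fold changes, and of Gusb and Hyal2, the 2 lowest, held none of the 4 motifs on either strand. They are printed whole, so that the highest and lowest responders can be read side by side, 5′ to 3′ along the gene's strand in lower case, since no letters match. No match says only that these letters are not in these 300 bases.
Hexa, chr9:59539290-59539589, plus strand: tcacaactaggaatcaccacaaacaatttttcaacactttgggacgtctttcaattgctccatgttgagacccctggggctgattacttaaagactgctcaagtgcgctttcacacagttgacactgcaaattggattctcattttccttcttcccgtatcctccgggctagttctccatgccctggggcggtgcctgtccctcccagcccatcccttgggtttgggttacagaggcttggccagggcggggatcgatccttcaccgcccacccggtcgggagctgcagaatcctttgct
Neu1, chr17:34931003-34931302, plus strand: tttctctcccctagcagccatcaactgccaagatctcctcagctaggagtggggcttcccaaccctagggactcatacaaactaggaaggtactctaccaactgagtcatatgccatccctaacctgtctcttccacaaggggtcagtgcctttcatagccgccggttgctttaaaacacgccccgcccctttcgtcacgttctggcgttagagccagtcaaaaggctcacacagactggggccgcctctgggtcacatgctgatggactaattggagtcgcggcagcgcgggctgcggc
Fuca2, chr10:13500778-13501077, plus strand: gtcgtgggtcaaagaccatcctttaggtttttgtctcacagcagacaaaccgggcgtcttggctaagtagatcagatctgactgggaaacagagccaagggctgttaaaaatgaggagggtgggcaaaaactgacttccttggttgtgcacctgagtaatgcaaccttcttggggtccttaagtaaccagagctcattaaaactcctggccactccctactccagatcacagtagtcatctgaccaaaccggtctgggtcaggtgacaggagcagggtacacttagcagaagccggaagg
Gusb, chr5:130003000-130003299, minus strand: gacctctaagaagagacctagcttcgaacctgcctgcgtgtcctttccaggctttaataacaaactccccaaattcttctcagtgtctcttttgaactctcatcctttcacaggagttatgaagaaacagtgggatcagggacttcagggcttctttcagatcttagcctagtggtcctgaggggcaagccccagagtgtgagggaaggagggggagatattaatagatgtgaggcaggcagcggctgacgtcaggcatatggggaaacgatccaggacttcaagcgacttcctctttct
Hyal2, chr9:107568913-107569212, plus strand: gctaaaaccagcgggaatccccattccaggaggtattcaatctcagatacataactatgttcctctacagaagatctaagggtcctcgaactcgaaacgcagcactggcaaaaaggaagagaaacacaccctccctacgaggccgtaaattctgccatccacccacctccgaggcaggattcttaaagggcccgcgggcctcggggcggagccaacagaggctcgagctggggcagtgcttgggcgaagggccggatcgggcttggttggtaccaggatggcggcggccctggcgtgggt

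**Figure D3:**
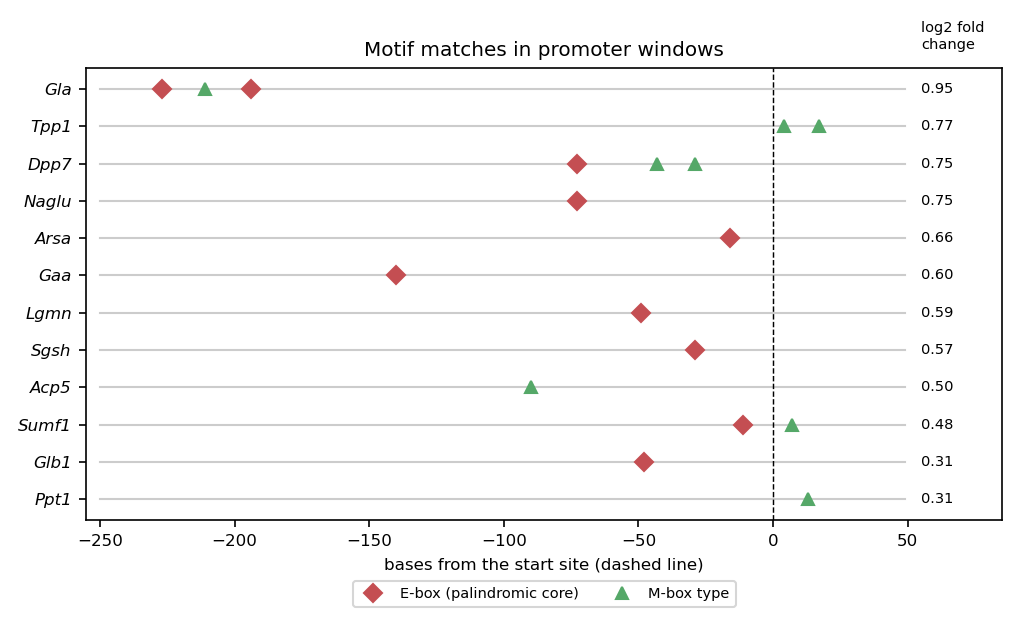
Position of each motif match (horizontal axis, bases from the start site) in the promoter windows of the 12 hydrolase genes that hold one, ordered by log2 fold change, which is printed at the right. Diamonds mark the E-box core and triangles the M-box form; the E-box matches lie before the start site and Ppt1, Sumf1 and Tpp1 hold M-box matches after it.

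Among the peptide-cutting enzymes, 4 of 5 tested genes rose (80%, against 21.4% of all genes) and Prcp was not called. Tpp1, an aminopeptidase that removes tripeptides and whose loss causes a neuronal ceroid lipofuscinosis, was at 68.5, 72.1 and 75.8 CPM in EtOH and 123, 128 and 119 CPM in 4OHT. All 4OHT libraries were above all EtOH libraries, a 1.71-fold rise (log2 fold change 0.77, SE 0.06, edgeR adjusted p 7.3e-26). Scpep1, a serine carboxypeptidase, was at 171, 154 and 157 CPM in EtOH and 243, 257 and 255 CPM in 4OHT, a rise of 0.64 (SE 0.05, adjusted p 2.2e-31). Per kilobase it stood level with Psap as the highest of the 42 genes in EtOH, each at 77.6 CPM per kb. Lgmn, the asparaginyl endopeptidase that also processes other lysosomal proteases, moved from 45.1, 47.7 and 44.3 CPM to 67.1, 70.3 and 68.7 CPM, 1.5-fold higher (adjusted p 2.9e-11). Dpp7, which removes dipeptides, went from a mean of 20.6 ± 3.24 to 34.6 ± 3.45 CPM (SD, n = 3), a log2 rise of 0.75. Prcp, a carboxypeptidase that cuts after proline, was at 37.5, 29.4 and 36.2 CPM in EtOH and 30.8, 33.7 and 32.6 CPM in 4OHT, with a log2 fold change of -0.08 (SE 0.10, adjusted p 0.55) and overlapping groups. Cpq, a secreted and lysosomal carboxypeptidase, was not tested. Its EtOH libraries held 1, 0 and 0 counts and its 4OHT libraries 1, 0 and 1, all under the limit of detection.

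The glycan class was the largest and the only one with calls in both directions. The other classes held 2 to 7 tested genes each. Of the 14 glycan genes, 9 rose (64.3%, against 21.4% of all genes), 2 fell (14.3%, against 20.6%) and 3 were not called. The 3 largest rises of the class were also the largest of the 40 tested genes. Fuca2, an alpha-fucosidase known mainly as a secreted plasma enzyme, was at 12.9, 17.9 and 15.7 CPM in EtOH and 36.2, 40 and 41.2 CPM in 4OHT, a 2.55-fold rise (log2 fold change 1.35, SE 0.12, edgeR adjusted p 1e-22). Neu1, the sialidase that removes terminal sialic acid, was at 20.9, 31.2 and 21.2 CPM in EtOH and 57.5, 57 and 55.1 CPM in 4OHT, 2.31-fold higher (log2 1.21, SE 0.10, adjusted p 1.8e-25). EtOH replicate 2 was higher than the other EtOH libraries for Neu1, yet lay well below every 4OHT library. Hexa encodes the alpha subunit of beta-hexosaminidase, the enzyme missing in Tay-Sachs disease. It was at 47.1, 42 and 46.3 CPM in EtOH and 103, 96.5 and 100 CPM in 4OHT, 2.21-fold higher (log2 1.14, SE 0.07, adjusted p 1.3e-36).

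Smaller rises were seen in enzymes of glycogen, mannoside, heparan sulfate and galactoside breakdown. Gaa, the acid glucosidase that digests glycogen and is missing in Pompe disease, moved from 76.1, 80.7 and 78.5 CPM to 117, 124 and 116 CPM (log2 0.60, SE 0.06, adjusted p 1.6e-17). Manba, the beta-mannosidase, moved from 82.6, 78.9 and 81.2 CPM to 118, 118 and 121 CPM (log2 0.56, SE 0.06). Both had tight groups with no overlap. Glb1, the acid beta-galactosidase, rose less, from 54.6, 51.5 and 53.4 CPM to 65.8, 64.9 and 67.2 CPM, 1.24-fold (adjusted p 0.00037). Idua, which cuts iduronic acid from heparan and dermatan sulfate, went from a mean of 9.42 ± 0.926 to 14.2 ± 2.09 CPM (SD, n = 3; log2 0.60, SE 0.17, adjusted p 0.002). Naglu, the N-acetylglucosaminidase of the same pathway, was at 5.44, 6.1 and 7.38 CPM in EtOH and 10.9, 13.7 and 7.5 CPM in 4OHT. The 4OHT libraries differed among themselves, and replicate 3 was only just above the highest EtOH library. Its log2 fold change of 0.75 (SE 0.21, adjusted p 0.0014) came to 0.52 with an adjusted p of 0.063 without 4OHT replicate 2. Aga, which cleaves the bond between asparagine and its sugar, was called at 0.69 (SE 0.24, adjusted p 0.013) with overlapping groups, 4.23, 3.39 and 6.89 against 6.51, 6.67 and 9.53 CPM. Its adjusted p was 0.08 and 0.12 with EtOH replicates 1 and 2 left out in turn, 0.18 with 4OHT replicate 3 left out and 0.12 in DESeq2.

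The 2 genes that fell were Gusb and Hyal2. Gusb, the beta-glucuronidase, was at 38.5, 38.4 and 34.2 CPM in EtOH and 26, 27.8 and 25.9 CPM in 4OHT. Every 4OHT library was below every EtOH library, a difference of -0.48 on the log2 scale (SE 0.10, adjusted p 3.8e-05), or 1.4-fold higher in EtOH. Hyal2, a hyaluronidase anchored to the cell surface as well as found in lysosomes, was at 36.5, 38.9 and 40.8 CPM in EtOH and 31.5, 31.4 and 31.4 CPM in 4OHT (log2 -0.30, SE 0.10, adjusted p 0.0097). The Hyal2 call rests on little margin, with an adjusted p of 0.056 without EtOH replicate 3 and 0.061 in DESeq2. Fuca1, the lysosomal alpha-fucosidase, was at 36.3, 34.6 and 38.6 CPM in EtOH and 45.1, 37.9 and 43.1 CPM in 4OHT, with a log2 fold change of 0.20 (SE 0.09, adjusted p 0.073). Without 4OHT replicate 2, its lowest treated library, the adjusted p was 0.021, and with any other library left out it was 0.063 to 0.23. Man2b1, the alpha-mannosidase, gave 0.12 (SE 0.07, adjusted p 0.19), although its 4OHT libraries (68.6 to 70.3 CPM) all lay above the EtOH libraries (62 to 66.7 CPM). Hgsnat, the membrane acetyltransferase of heparan sulfate breakdown, gave 0.23 (SE 0.13, adjusted p 0.17) with overlapping groups.

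**Figure D4:**
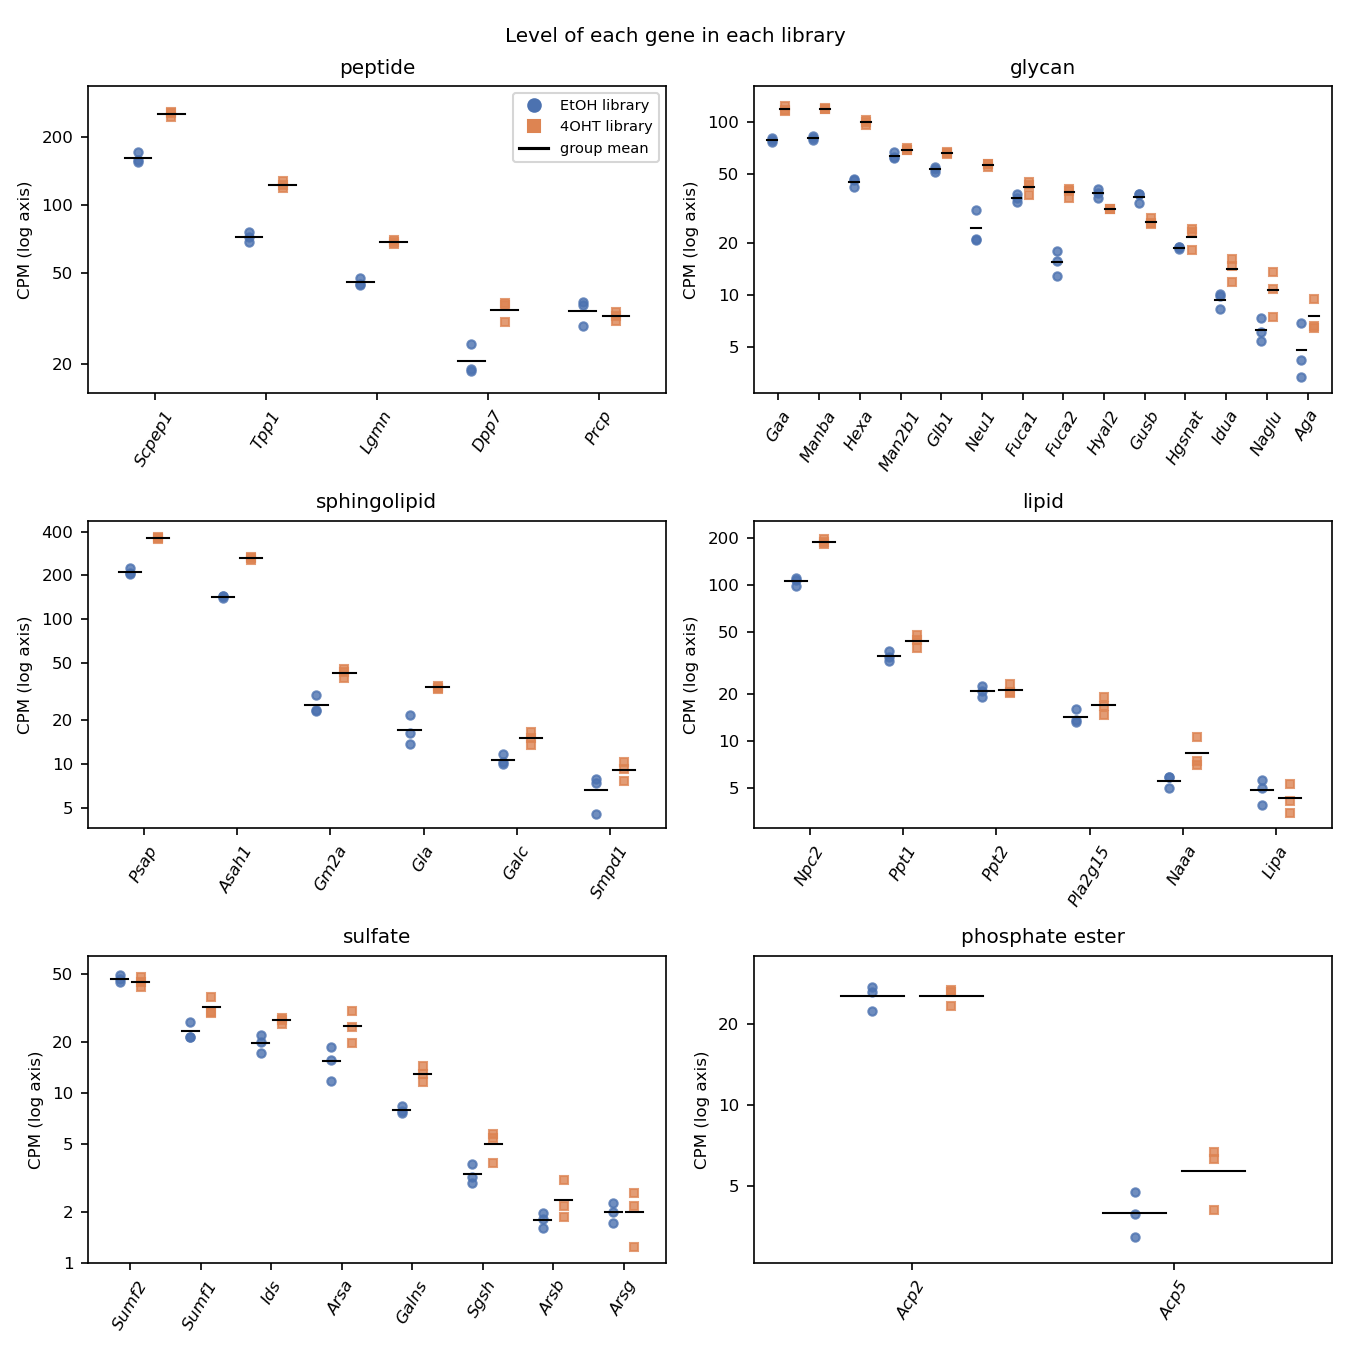
CPM on a log axis of every hydrolase gene in each library, 1 panel per substrate class, with the 3 EtOH libraries as circles, the 3 4OHT libraries as squares and the group mean as a line. Cpq is not drawn because some libraries are at 0. Psap, Asah1 and Scpep1 are the most abundant, and the groups are clearly apart for Hexa, Neu1, Fuca2, Psap, Asah1 and Npc2.

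In the sphingolipid class 5 of 6 genes rose (83.3%, against 21.4% of all genes), by 0.51 to 0.95 on the log2 scale. Psap, prosaposin, is cut into the saposins that lift lipids to the hydrolases. It was at 205, 207 and 223 CPM in EtOH and 364, 363 and 355 CPM in 4OHT, 1.7-fold higher (log2 0.77, SE 0.04, edgeR adjusted p 6.6e-46). Asah1, the acid ceramidase that releases sphingosine, was at 144, 140 and 144 CPM in EtOH and 255, 261 and 269 CPM in 4OHT, 1.84-fold higher (log2 0.88, SE 0.05). Its adjusted p of 7.5e-48 was the smallest of the 40 genes. Gla, the alpha-galactosidase missing in Fabry disease and the gene with paired E-box cores shown above, was at 21.8, 13.8 and 16.5 CPM in EtOH and 32.8, 34.8 and 33.7 CPM in 4OHT, 1.93-fold higher (log2 0.95, SE 0.12, adjusted p 2.1e-12). Gm2a presents ganglioside GM2 to beta-hexosaminidase. It was at 23.8, 29.8 and 23.1 CPM in EtOH and 43.2, 44.9 and 39.2 CPM in 4OHT, 1.65-fold higher (adjusted p 3.1e-10), with no overlap between the groups.

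Galc, the galactosylceramidase missing in Krabbe disease, was at 10.1, 11.8 and 10.3 CPM in EtOH and 15.2, 13.5 and 16.7 CPM in 4OHT (log2 0.51, SE 0.16, adjusted p 0.0075). That call gave an adjusted p of 0.069 without 4OHT replicate 3 and 0.065 in DESeq2. Smpd1, the acid sphingomyelinase, was at 7.45, 4.52 and 7.87 CPM in EtOH and 9.33, 10.3 and 7.65 CPM in 4OHT. The groups overlapped and the log2 fold change of 0.45 (SE 0.21) had an adjusted p of 0.078. It was 0.57 (adjusted p 0.038) without 4OHT replicate 3, but 0.24 (0.44) with EtOH replicate 2 left out and 0.34 (0.25) with 4OHT replicate 2 left out.

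Of the 6 genes that act on other lipids, Npc2, Naaa and Ppt1 rose (50%, against 21.4% of all genes). Lipa, Pla2g15 and Ppt2 were not called. Npc2, the small protein that passes cholesterol to Npc1 for export, was at 108, 111 and 98.9 CPM in EtOH and 188, 197 and 183 CPM in 4OHT, 1.78-fold higher (log2 0.83, SE 0.05, edgeR adjusted p 4.6e-38). Lipa, the acid lipase that releases cholesterol and fatty acids from the esters brought in by lipoproteins, was at 5.03, 5.65 and 3.94 CPM in EtOH and 3.47, 4.15 and 5.31 CPM in 4OHT. Its log2 fold change was -0.16 with an SE of 0.27 (adjusted p 0.69), and the groups overlapped. Ppt1, which strips palmitate from proteins, moved from 34.8, 37.8 and 32.7 CPM to 47.5, 39.7 and 44.4 CPM, 1.24-fold (adjusted p 0.0036). Ppt2, a related thioesterase, was at 19.3, 21 and 22.6 CPM in EtOH and 23.2, 20.6 and 20.5 CPM in 4OHT (log2 0.03, SE 0.13, adjusted p 0.89). Of the exon bases of Ppt2, 36.6% lie in another gene model on the same strand, so its counts are uncertain. Pla2g15, the acidic phospholipase, gave 0.24 (SE 0.15, adjusted p 0.19). Naaa, which hydrolyses N-acylethanolamines, was at 5.03, 5.88 and 5.9 CPM in EtOH and 10.6, 7.03 and 7.5 CPM in 4OHT (log2 0.56, SE 0.22, adjusted p 0.033). The Naaa call was lost when any one of 4 libraries was left out. The adjusted p was 0.14, 0.051 and 0.054 with EtOH replicates 1, 2 and 3 left out in turn, and 0.23 with 4OHT replicate 1 left out. DESeq2 gave 0.14 and limma-voom 0.056.

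Among the sulfatases and their activating factors, 4 of 7 tested genes rose (57.1%, against 21.4% of all genes): Galns, Arsa, Ids and Sumf1. Galns, which removes sulfate from keratan and chondroitin sulfate, was at 7.85, 8.36 and 7.63 CPM in EtOH and 13, 14.4 and 11.6 CPM in 4OHT, 1.63-fold higher (log2 0.70, SE 0.18, edgeR adjusted p 0.00069). Arsa, the sulfatase of sulfatide that is missing in metachromatic leukodystrophy, was at 18.7, 11.8 and 15.7 CPM in EtOH and 30.6, 24.5 and 19.7 CPM in 4OHT (log2 0.66, SE 0.14, adjusted p 3.3e-05). Its groups did not overlap, although 4OHT replicate 3 lay near EtOH replicate 1. Ids, the iduronate sulfatase of heparan sulfate breakdown, rose 1.35-fold from a mean of 19.7 ± 2.37 to 26.8 ± 1.09 CPM (SD, n = 3; adjusted p 0.0022).

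Sumf1 makes the formylglycine on which every sulfatase depends. It was at 21.5, 26.2 and 21.4 CPM in EtOH and 30, 36.8 and 29.5 CPM in 4OHT, 1.39-fold higher (log2 0.48, SE 0.11, adjusted p 0.0002). Its paralog Sumf2, which lacks that activity, was at 49.3, 46.8 and 45.3 CPM in EtOH and 44.9, 48.3 and 42.2 CPM in 4OHT (log2 -0.07, SE 0.09, adjusted p 0.56). Sgsh, the sulfamidase of heparan sulfate breakdown, was at 3.22, 3.84 and 2.95 CPM in EtOH and 5.43, 5.77 and 3.9 CPM in 4OHT. The groups did not overlap, but at this depth the SE was 0.29 and the log2 fold change of 0.57 was not called (adjusted p 0.11). Arsg, an arylsulfatase of heparan sulfate breakdown, lay at the filter level, at most 2.6 CPM in any library, with a log2 fold change of -0.05 and an SE of 0.42. Arsb, the sulfatase of dermatan sulfate, did not pass the filter, with 8 counts in each EtOH library and 10, 17 and 12 counts in the 4OHT libraries. Among all 42 genes, those with over 10% of their exon bases under another gene model on the opposite strand are Arsb (39.9%), Sumf2 (23.6%), Sgsh (21.6%), Arsa (18.8%), Hexa (12.8%) and Acp2 (12.6%). The library kit was stranded, but the strand setting of the counting is not given in the sources used here, so the counts of these 6 genes are less certain, those of the called genes Arsa and Hexa included.

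Neither phosphatase was called by edgeR, DESeq2 or limma-voom, nor had an unadjusted p under 0.05 in any of them. Acp2, the lysosomal acid phosphatase, was at 26.4, 27.6 and 22.4 CPM in EtOH and 23.4, 26.3 and 26.9 CPM in 4OHT (log2 0.01, SE 0.12, edgeR adjusted p 0.96). Acp5, the tartrate-resistant acid phosphatase known from osteoclasts and macrophages, was at 3.22, 4.75 and 3.94 CPM in EtOH and 6.29, 6.67 and 4.06 CPM in 4OHT (log2 0.50, SE 0.27, adjusted p 0.14). The log2 fold change of Acp5 was 0.72 (adjusted p 0.04) without 4OHT replicate 3, its lowest treated library, but 0.35 without EtOH replicate 1 (adjusted p 0.4) or without 4OHT replicate 2 (0.39).

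How much could be seen depended on the level of the gene. Of the 10 tested hydrolase genes with an EtOH mean under 10 CPM, 5 were called and the SE ran from 0.17 to 0.42, while of the 12 at 40 CPM or more, 10 were called and the SE ran from 0.04 to 0.09. Rises were called for 17.7% of all tested genes in the low range and 23.9% in the high range. Among the abundant genes, Man2b1 and Sumf2 were the ones not called. The level of the low-count filter, 2.08 CPM, was reached in all 6 libraries by 39 of the 40 tested genes; Arsg reached it in 1 EtOH and 2 4OHT libraries. Per kilobase in EtOH, the order ran from Scpep1 and Psap (77.6 CPM per kb each) through Asah1 (63.2) and Npc2 (32.5) to Sgsh (0.772), Arsg (0.589), Arsb (0.45) and Cpq (0.0333).

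Ratios of related genes were taken within each library. The ratio of Fuca2 to Fuca1 was 0.356, 0.516 and 0.408 in the EtOH libraries and 0.803, 1.06 and 0.957 in the 4OHT libraries. The mean ratio was 0.427 in EtOH and 0.939 in 4OHT. The ratio of Sumf1 to Sumf2 was 0.49 ± 0.0636 in EtOH and 0.709 ± 0.0479 in 4OHT, that of Ppt1 to Ppt2 1.68 ± 0.204 and 2.05 ± 0.119, and that of Arsa to Arsg 7.88 ± 2.32 and 12.9 ± 2.44 (SD, n = 3). The last rests on only 7 to 12 Arsg counts per library. The groups did not overlap in these 4 pairs. For Acp5 to Acp2 they did, at 0.157 ± 0.03 and 0.224 ± 0.0638.

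A further 2 ratios were chosen after the values were seen, for complex partners. Neu1 works in a complex with Glb1 and with the protective protein Ctsa. The ratio of Neu1 to Glb1 was 0.384, 0.605 and 0.396 in EtOH and 0.875, 0.878 and 0.821 in 4OHT, while that of Neu1 to Ctsa overlapped between the groups, at 0.282, 0.462 and 0.325 against 0.493, 0.451 and 0.451. In a two-sided exact permutation test the 5 ratios without overlap each gave p = 0.1, the smallest that 3 against 3 libraries allow, or 0.14 after adjustment over the 7 pairs. Both overlapping pairs gave p = 0.3 in the same exact test. No pair could therefore reach 0.05.

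**Figure D5:**
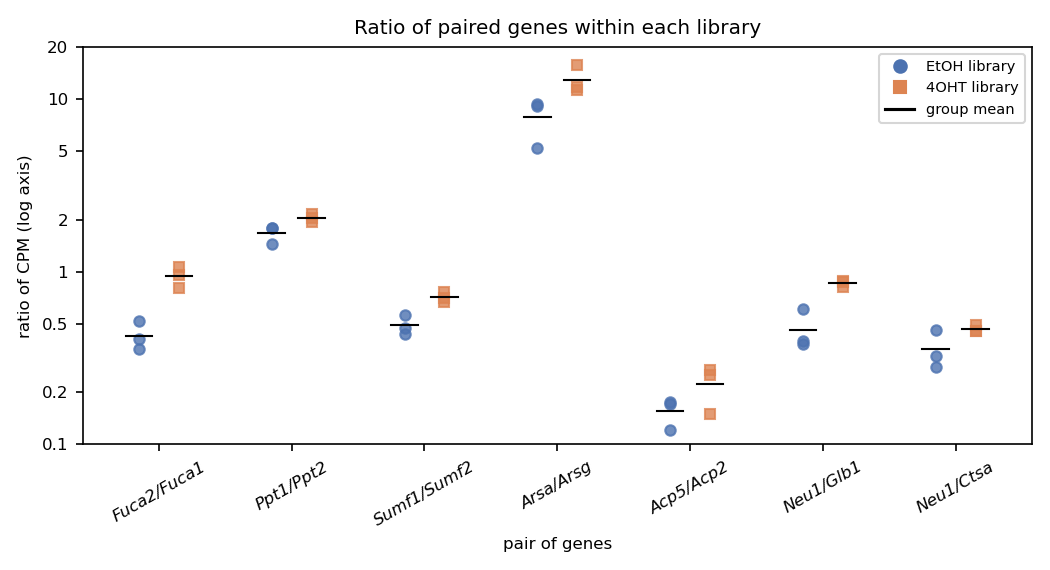
Ratio of the CPM of 2 related genes within each library (vertical axis, log scale) for 7 pairs, with EtOH libraries as circles, 4OHT libraries as squares and group means as lines. The groups are apart in 5 pairs and overlap for Acp5/Acp2 and Neu1/Ctsa.

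Other lysosomal enzymes and cofactors, a list of 23 symbols of which 21 were in the table, also mostly rose. Of 20 tested genes, 12 were called higher (60%, against 21.4% of all genes) and none lower (against 20.6%). The median log2 fold change was 0.47. No gene of that list was lower at an unadjusted p under 0.05 in edgeR, DESeq2 or limma-voom. Ctsa rose 1.76-fold, from 74.3, 67.6 and 65.2 CPM to 117, 126 and 122 CPM (log2 0.82, SE 0.06, edgeR adjusted p 1.9e-27). Creg1, a lysosomal glycoprotein, rose 1.88-fold, from 9.26, 10.9 and 11.8 CPM to 18.2, 21.3 and 19.8 CPM (log2 0.91, SE 0.16, adjusted p 1.3e-07). The 4OHT libraries were above the EtOH libraries for both genes.

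Of 12 tested genes that tag and deliver these enzymes, 7 were called higher (58.3%, against 21.4% of all genes), 2 lower (16.7%, against 20.6%) and 3 not, with a median log2 fold change of 0.26. The summed level rose from 814 ± 9.85 to 969 ± 14.8 CPM (SD, n = 3), a ratio of 1.19 beside 1.52 for the hydrolases; the difference between these ratios was not tested. Igf2r, the large mannose 6-phosphate receptor, was at 118, 126 and 119 CPM in EtOH and 185, 182 and 191 CPM in 4OHT, 1.54-fold higher (log2 0.62, SE 0.05, edgeR adjusted p 1.6e-25). M6pr, the small receptor, rose 1.22-fold, and Cln6, which helps enzymes leave the endoplasmic reticulum, 1.58-fold. Gga2, an adaptor that sorts the receptors, was called at 1.13-fold (adjusted p 0.00074), although its groups overlapped at 212 CPM.

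The genes of that list called lower were Gnptab and Sort1. Gnptab encodes the phosphotransferase that starts the mannose 6-phosphate tag. It was at 72.3, 73.5 and 71.1 CPM in EtOH and 63.4, 62.6 and 62 CPM in 4OHT (log2 -0.21, SE 0.07, adjusted p 0.014, 0.073 in DESeq2). Sort1, a sorting receptor that does not need the tag, was at 53, 53.6 and 55.6 CPM in EtOH and 48.2, 43.5 and 44.7 CPM in 4OHT (log2 -0.25, SE 0.08, adjusted p 0.0089, 0.062 in DESeq2). Cln8, the partner of Cln6, rose 1.33-fold (adjusted p 0.0075), with 0.064 in DESeq2 and 0.07 without EtOH replicate 3. Gga1 (log2 0.20, adjusted p 0.052), Gga3 (0.03) and Tmem251 (0.24) were not called, and Gga1 passed without EtOH replicate 1 (0.038) or without 4OHT replicate 1 (0.035). DESeq2 called 4 genes of this list higher and none lower, with 2 lower at an unadjusted p under 0.05.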

How the data were processed

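RNA-seq libraries of 6 mESC samples (3 EtOH, 3 4OHT) were grouped by their labels. For each gene and library the authors deposited a raw read count. The submitters' processing notes list fastp, STAR, featureCounts and mm10, without roles. Per the labels' protocols, the mRNA kit was stranded. Not given in the sources used here were tool versions, the gene annotation, the counting's strand setting and how reads with several matches were treated. Gene length in bases, deposited beside each gene, was used only for levels per kilobase.

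Genes were filtered with filterByExpr (minimum count 10), scaled by TMM and tested with edgeR 4.0.16 (quasi-likelihood, robust estimation, R 4.3.3), with p adjusted over 12345 genes. SE is the log2 fold change over the root of F. The test was checked on simulated counts in which far fewer genes changed than were called here. That check does not cover a setting like these data. Genes without a symbol (1314) held 0.411 to 0.478% of counts. Alternatives were DESeq2 1.42.0, its size factors, limma-voom (limma 3.58.1), other filters, a replicate block, each library left out and edgeR without robust estimation, the last chosen after seeing the data. Replicates of a group differed beyond counting error. Ratios were tested by exact permutation.

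The members and lists were chosen with earlier results of these data known. All 42 members are accounted for. Of the 2 pathway lists, up to 6 genes with the smallest p are named, with any group of 5 or fewer; some are not reported here. Promoters were printed for the 3 called genes with the largest log2 fold change and the 2 lowest. Positions are RefSeq, GRCm38.p6, and exon overlaps are from GENCODE on the same build.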

Additional observations from a re-analysis of the deposited data

How the results depend on the processing

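Of the 27 hydrolase genes called, 22 were called in the same direction under all 13 alternatives, and the others are given with their values above. The count of genes called higher was 25 in the test reported and ranged from 22 (DESeq2) to 25, with 23 to 25 when 1 library was left out. The count called lower was 2, with 1 in DESeq2 and 1 to 2 when a library was left out, the 1 being without EtOH replicate 3. For tagging and delivery genes, DESeq2 called 4 higher in place of 7 and 0 lower in place of 2, with 2 lower at an unadjusted p under 0.05. Over all genes, DESeq2 called 1926 higher and 1761 lower, in place of 2643 and 2546. The cause of these differences was not tested. Signs changed only in genes that were not called. With 1 library left out, the log2 fold change of Ppt2 ranged from -0.03 (EtOH replicate 1 or 4OHT replicate 1) to 0.08, and that of Arsg from -0.25 to 0.24 (4OHT replicate 3; 0.04 without EtOH replicate 2). That of Acp2 ranged from -0.07 (EtOH replicate 3; -0.01 and -0.03 without 4OHT replicates 2 and 3) to 0.07, and that of Gga3 from -0.01 (EtOH replicate 2) to 0.07. Depth limits the genes under 10 CPM, where the SE reached 0.42.

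The labels give both groups replicate numbers 1 to 3 without saying that a number marks a shared culture. Same-numbered libraries did not deviate together (r = -0.0226, -0.0161 and -0.017 over genes), so the numbers were not taken as pairs. With the replicate number as a block, edgeR called 25 hydrolase genes higher and 2 lower, 12 and 0 of the other lysosomal enzymes, 7 and 2 of the tagging and delivery genes, and 2585 and 2497 of all genes.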

Other observations

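Some of the hydrolase genes are neighbours on the chromosome and differed in their calls. A call also depends on the SE, and differences in fold change between neighbours were not tested. Gusb, which fell, and Sumf2, which was not called, lie 125 kb apart on chromosome 5. Neu1 (log2 fold change 1.21, SE 0.10) and Ppt2 (0.03, SE 0.13, not called) lie 293 kb apart on chromosome 17. Tpp1 (0.77, SE 0.06) and Smpd1 (0.45, SE 0.21, not called) lie 186 kb apart on chromosome 7. Gaa (0.60, SE 0.06) and Sgsh (0.57, SE 0.29, not called) had nearly the same log2 fold change. They lie 58 kb apart on chromosome 11, and both hold the E-box core CACGTG in their promoter windows. A link between the core and these fold changes was not tested.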
